A study of Cricetulus griseus with 6 samples.

Results

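The 4 mammalian syndecans (*Sdc1*, *Sdc2*, *Sdc3* and *Sdc4*), 4 glypicans (*Gpc1*, *Gpc3*, *Gpc4* and *Gpc6*) and heparanase (*Hpse*) were examined in RNA-Seq libraries of CHO-T cells. They were chosen by gene symbol, and each of the 9 symbols stood on 1 row among the 27873 entries of the files. CHO-T cells are Chinese hamster ovary (CHO) cells that were infected with a retrovirus carrying mouse T-cadherin (*Cdh13*) cDNA and selected in puromycin, so both groups carry this transgene. The cells were transfected with negative control siRNA (n = 3 libraries) or with *Xbp1* siRNA (n = 3 libraries) and harvested 48 h later, and the question was how silencing of *Xbp1*, a transcription factor of the unfolded protein response, altered gene expression in cells whose release of extracellular vesicles had been measured. The labels do not say whether the 3 libraries of a group came from separate cultures. The methods of the study speak of independent experiments in general, without naming these libraries, so the p-values measure the spread between the libraries, which may in part be technical.

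Syndecans and glypicans are the main families of heparan sulfate proteoglycans at the cell surface. Syndecans cross the membrane once and end in a short cytoplasmic tail that binds PDZ domain proteins such as syntenin, whereas glypicans are held in the outer leaflet by a glycosylphosphatidylinositol (GPI) anchor. Their heparan sulfate chains bind growth factors, matrix proteins and enzymes, and heparanase cuts these chains. In other cells, the syndecan, syntenin and ALIX proteins have been linked to the budding of vesicles into endosomes, and heparanase has been reported to stimulate that route.

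Expression was given as FPKM, the fragments of a gene scaled by its length and by the reads mapped in the library, which allows levels of different genes to be set side by side per length. *Xbp1* fell to 7.05% of its control level, 26.8 ± 1.35 against 1.89 ± 0.440 FPKM (SD, n = 3). *Cdh13* fell to 38.6%, 85.2 ± 0.478 against 32.9 ± 0.476 FPKM (SD, n = 3). The transgene is under a retroviral element, and the study states that T-cadherin of the cells' own could not be detected. FPKM values carry no read totals. Low values fell on steps of 1 read, which placed the depth of the other libraries at 94.0% to 116% of that of control replicate 1. The column sums were 646651 to 666267 FPKM with control siRNA and 593487 to 600986 FPKM with *Xbp1* siRNA, while the median log2 fold change over all genes tested was 0.006. The labels name ovary as the tissue, and of 6 markers of ovarian somatic cells 4 were in the files, of which *Amh* was highest with 2.07 to 3.55 FPKM and *Fshr* was listed at 0 in every library. The 4 mesenchymal markers summed to 387 to 407 FPKM with control siRNA and 322 to 345 FPKM with *Xbp1* siRNA, and they did not move together: *Vim* and *Pdgfrb* fell by 0.31 and 0.65 on the log2 scale, *Fn1* rose by 0.83 and *Thy1* was listed at 0. Under the alternative fits described below, the log2 fold change of *Vim* lay between −0.35 and −0.18. The 3 leukocyte markers summed to 5.18 to 6.15 and 7.05 to 8.86 FPKM, nearly all of it from *Cd68*, which rose by 0.46 on the log2 scale (adjusted p of 0.0142, limma), while *Ptprc* was listed at 0. Of 3 germ cell markers 2 were in the files, with *Ddx4* at 1.10 to 1.94 FPKM and *Zp3* listed at 0, and the 3 endothelial markers summed to at most 0.305 FPKM, with *Cdh5* listed at 0. The part of these markers in the members' results was not tested. In bulk RNA, fewer cells that express a gene and less RNA per cell cannot be told apart.

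After *Xbp1* silencing, *Sdc4* and *Gpc1* fell, and *Sdc1* and *Gpc6* rose. The weakly expressed *Sdc2* also passed the test, with 19 reads against 49, but not under 7 of 13 alternatives. *Sdc4* had the largest fall, to 60.6% of its control level, and *Sdc1* overtook it as the most abundant member. Heparanase had a mean of 117% of the control and did not pass the test. *Sdc3*, *Gpc3* and *Gpc4* were at or close to 0 in both conditions. A gene was tested when its mean over the 6 libraries was at least 0.1 FPKM, which 6 of the 9 members met, each of them with a mean over 0.1 FPKM in both conditions. The test was limma on log2(FPKM + 0.1), a scale that understates changes of weakly expressed genes, with p adjusted over all 14361 genes tested by the Benjamini-Hochberg method. At an adjusted p under 0.05, 3 members were higher, or 2 where *Sdc2* did not pass, and 2 were lower, and each direction held 20.2% of all genes tested. When a log2 fold change of at least 1 was also required, as in the methods of the study, limma called 0 members higher and 0 lower, against 2.69% and 2.50% of all genes tested, or 5.19% in either direction. At an unadjusted p under 0.05, 3 members were higher and 2 lower, beside 24.6% and 24.3% of all genes tested. The median log2 fold change of the 6 members tested was 0.26, beside 0.006 over all genes.

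**Figure D1:**
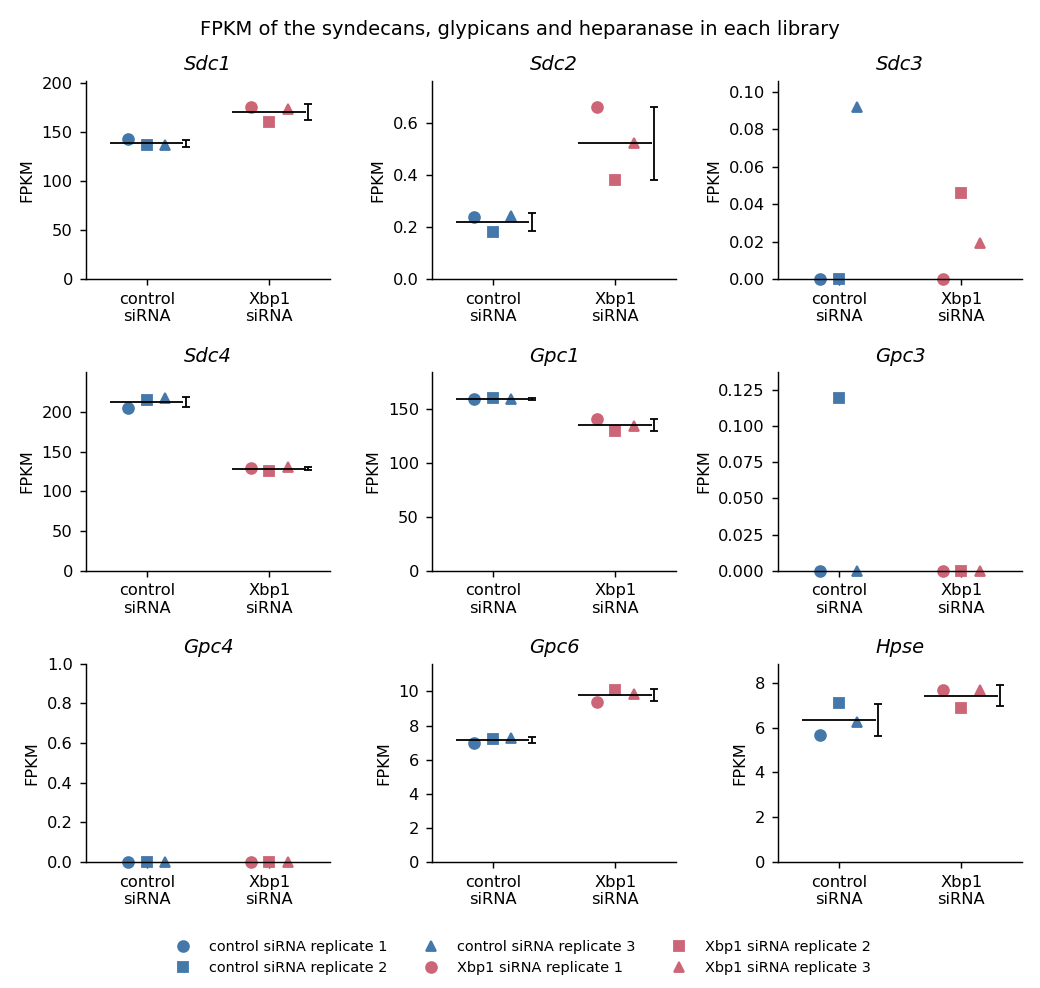
FPKM of the 9 members in each library, with 1 panel per gene, its own linear axis from 0, and 1 symbol per replicate number. Horizontal lines are group means and the bars beside them are SD (n = 3); they are not drawn for *Sdc3*, *Gpc3* and *Gpc4*, which have values of 0. The groups did not overlap for *Sdc1*, *Sdc2*, *Sdc4*, *Gpc1* and *Gpc6*, and overlapped for *Hpse*. How many of all genes tested had groups apart was not counted. Of all genes tested, 40.4% had an adjusted p under 0.05 (limma).

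*Sdc4*, a broadly expressed syndecan of focal adhesions, was the most abundant member with control siRNA and ranked 446 by mean level among all entries. It had 205, 215 and 217 FPKM in the control libraries, against 129, 126 and 130 FPKM after *Xbp1* silencing. The lowest control library lay well above the highest library with *Xbp1* siRNA. The means were 212 ± 6.30 and 129 ± 2.08 FPKM (SD, n = 3). The log2 fold change of −0.72 had a standard error of 0.0337 and an adjusted p of 6.78e-06 (limma). Of all genes tested, 15.8% had a log2 fold change at least as large in size, while the p-value ranked 138. Permuting the 3 + 3 libraries exactly gave a two-sided p of 0.10, the smallest that this design allows, for *Sdc4* as for the other members whose groups did not overlap.

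*Sdc1*, the syndecan typical of epithelia and plasma cells, had 143, 137 and 137 FPKM in the control libraries. With *Xbp1* siRNA it had 176, 161 and 174 FPKM, and every one of these libraries was above every control library. The means were 139 ± 3.66 and 170 ± 8.33 FPKM (SD, n = 3). The log2 fold change of 0.29 had a standard error of 0.0435 and an adjusted p of 0.00153 (limma). The values fell on whole reads, and before depth is taken into account the smallest whole numbers that they allow were 996, 896 and 932 reads in the controls, against 1255, 1096 and 1402 after silencing. Changes of this size were common, since 47.5% of all genes tested had a log2 fold change at least as large. Of 4 epithelial markers 3 were in the files, *Krt18* was listed at 0, and *Epcam* rose by 1.32 on the log2 scale (adjusted p of 0.000256, limma). *Cdh1* was higher by 1.29 (log2 scale, adjusted p of 0.0489, limma) and did not pass under 8 alternatives, with an adjusted p of up to 0.145. Its log2 fold change lay between 0.34 and 1.96 over the alternatives. The summed level of the list went from 1.83 to 2.16 FPKM with control siRNA to 4.59 to 5.79 FPKM with *Xbp1* siRNA. The part of this list in the rise of *Sdc1* was not tested.

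*Sdc2*, a syndecan of mesenchymal cells, was expressed at a low level, with 0.238, 0.181 and 0.243 FPKM in the control libraries against 0.663, 0.381 and 0.526 FPKM after silencing. In reads these were 7, 5 and 7 against 20, 11 and 18, a sum of 19 against 49. The lowest library with *Xbp1* siRNA was above the highest control library. The mean FPKM rose 2.37-fold, from 0.220 ± 0.0345 to 0.523 ± 0.141 (SD, n = 3), and the log2 fold change of FPKM + 0.1 was 0.94 (95% interval 0.22 to 1.67, adjusted p = 0.0453 from limma). *Sdc2* therefore had the largest relative change and the lowest level among the members tested. The adjusted p lay between 0.0452 and 0.147 when 1 library was left out: it was 0.0768, 0.110 and 0.0782 without control replicate 1, 2 and 3 and 0.147 and 0.113 without *Xbp1* siRNA replicate 1 and 3 (limma). The log2 fold change in these left-out fits was 0.78 to 1.12. A pseudocount of 1 gave a log2 fold change of 0.32 and a pseudocount of 0.01 gave 1.19 (adjusted p of 0.0429 and 0.0493, limma). Quantile normalization and the replicate block gave 0.86 and 0.94, with an adjusted p of 0.0618 and 0.0725 (limma).

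*Sdc3*, known from the nervous system, had 4 reads in control replicate 3, 2 reads in *Xbp1* siRNA replicate 2 and 1 read in *Xbp1* siRNA replicate 3, and was listed at 0 in the other libraries. Its highest value was 0.0919 FPKM. No fold change is given for so few reads, and *Sdc3* was not tested.

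**Figure D2:**
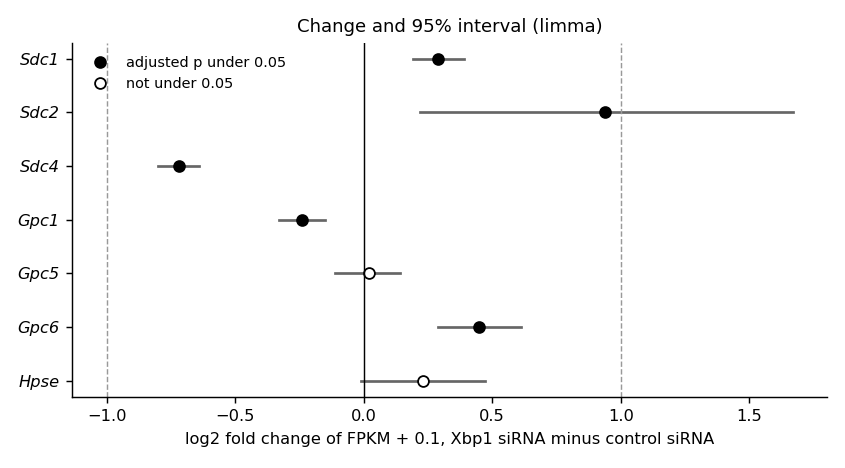
Log2 fold change of FPKM + 0.1 (x axis, *Xbp1* siRNA minus control siRNA) with its 95% interval from limma, for the 6 members tested and the glypican *Gpc5*. Filled points have an adjusted p under 0.05, dashed lines mark −1 and 1, and the interval of *Sdc2*, from 0.22 to 1.67, is the widest.

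Together these changes altered the order of the members. With control siRNA, the order of the 3 most abundant members was *Sdc4*, *Gpc1* and *Sdc1* in every library, and with *Xbp1* siRNA it was *Sdc1*, *Gpc1* and *Sdc4* in every library. The ratio of *Sdc4* to *Sdc1* was 1.43, 1.56 and 1.59 in the control libraries, against 0.732, 0.786 and 0.751 after silencing. The neighbours *Gpc1* and *Sdc4* were close with *Xbp1* siRNA, where their ranges over the libraries overlapped, although the ratio of *Sdc4* to *Gpc1* within a library was below 1 in each, with 0.914, 0.974 and 0.972. The ratio of levels between genes depends on the transcript lengths used for FPKM, which are not given in the sources used here. A change of that ratio between the conditions does not, provided that the same lengths apply in both. Ratios and shares are descriptions of the values tested above and were not tested.

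Of the summed FPKM of the syndecans, *Sdc4* held 60.4% ± 1.34 (SD, n = 3) with control siRNA and 43.0% ± 0.910 (SD, n = 3) with *Xbp1* siRNA. *Sdc1* held 39.6% ± 1.34 and 56.8% ± 0.876 (SD, n = 3). *Sdc2* and *Sdc3* together supplied little of the sum: the highest share of *Sdc2* was 0.217%, in *Xbp1* siRNA replicate 1. The summed level of the syndecans was 349, 352 and 354 FPKM in the controls, against 306, 287 and 305 FPKM with *Xbp1* siRNA. The rise of *Sdc1* was thus smaller in FPKM than the fall of *Sdc4*. Scaling a library leaves its shares as they are, but it changes its sums. The column sums over all genes were also lower with *Xbp1* siRNA, with 593487 to 600986 against 646651 to 666267 FPKM.

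**Figure D3:**
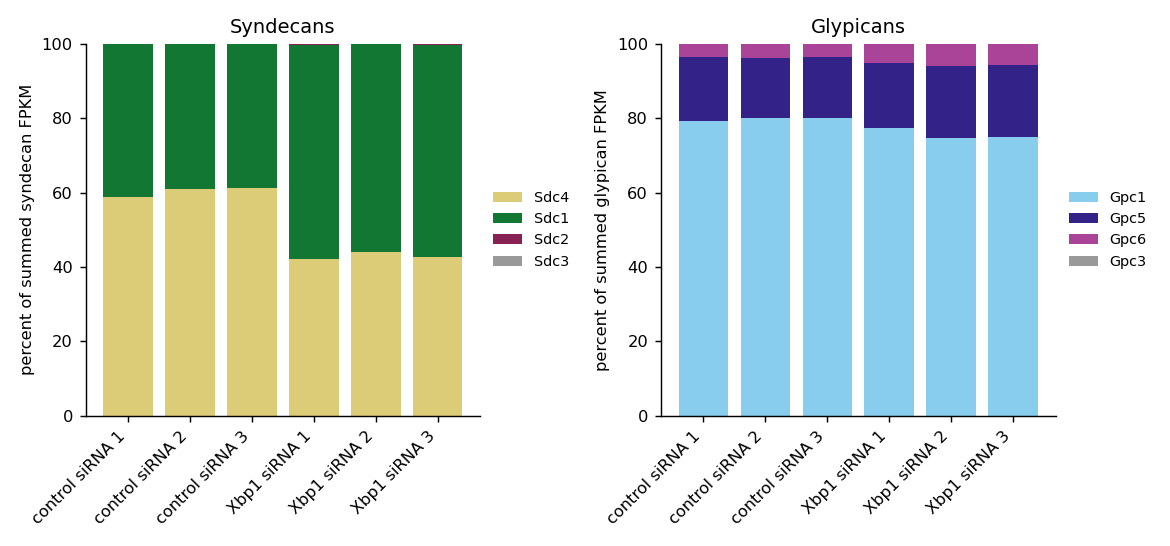
Make-up of the syndecans (left) and glypicans (right) in each library, as percent of the summed FPKM of the family (y axis, from 0), with 1 stacked bar per library. *Sdc4* held 58.8% to 61.3% in the control libraries and 42.2% to 44.0% with *Xbp1* siRNA, and *Gpc1* held the largest glypican share in all 6 libraries.

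*Gpc1* was the most abundant glypican, and its control libraries agreed closely, with 159, 160 and 159 FPKM. With *Xbp1* siRNA it had 141, 130 and 134 FPKM, below every control library. The means were 159 ± 0.361 and 135 ± 5.70 FPKM (SD, n = 3). The log2 fold change of −0.24 had a standard error of 0.0372 and an adjusted p of 0.00173 (limma). Over all genes tested, 54.4% had a log2 fold change at least as large in size. After quantile normalization the log2 fold change of *Gpc1* was −0.15 (adjusted p = 0.0161, limma).

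*Gpc6*, a glypican of developing mesenchyme and skeleton, had 6.97, 7.23 and 7.26 FPKM in the controls, against 9.40, 10.1 and 9.86 FPKM after silencing. The groups were apart and each was narrow. The means were 7.15 ± 0.161 and 9.79 ± 0.362 FPKM (SD, n = 3). The log2 fold change of 0.45 had a standard error of 0.0688 and an adjusted p of 0.00171 (limma). The ratio of *Gpc1* to *Gpc6* was 22.3 ± 0.495 in the controls and 13.8 ± 1.10 after silencing (SD, n = 3).

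*Gpc4* was listed at 0 in all 6 libraries. *Gpc3*, a glypican of the embryo, was listed at 0 in 5 libraries and had 0.119 FPKM in control replicate 2. The remaining glypicans of the family are no members, but they bear on the sum: *Gpc2* was listed at 0, and *Gpc5* lay between *Sdc1* and *Gpc6* in level, with 33.0 ± 1.24 and 33.4 ± 1.74 FPKM in the control and silenced cells (SD, n = 3). The log2 fold change of *Gpc5* was 0.02 (95% interval −0.11 to 0.14, adjusted p = 0.819 from limma). The summed level of the glypicans was 201, 199 and 199 FPKM in the controls, against 182, 174 and 179 FPKM with *Xbp1* siRNA. *Gpc1* held 79.9% ± 0.436 of it with control siRNA and 75.7% ± 1.55 with *Xbp1* siRNA (SD, n = 3), and *Gpc6* held 3.58% ± 0.0962 and 5.50% ± 0.330 (SD, n = 3). Syndecans and glypicans together summed to 551 ± 1.96 FPKM with control siRNA and 477 ± 14.4 FPKM with *Xbp1* siRNA (SD, n = 3). The column sums over all genes, given above, were lower with *Xbp1* siRNA too, and their part in the fall of the family sums was not tested.

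*Hpse*, the endoglycosidase that cleaves heparan sulfate, had 5.68, 7.08 and 6.24 FPKM in the controls, against 7.69, 6.89 and 7.68 FPKM with *Xbp1* siRNA. Control replicate 2 was above *Xbp1* siRNA replicate 2, so the groups overlapped. In reads the values were 158, 185 and 170 against 219, 188 and 248. The log2 fold change was 0.23 (95% interval −0.01 to 0.47, adjusted p = 0.121 from limma), and the exact permutation p (two-sided) was 0.20. The interval holds values from about no difference to a rise larger than that of *Sdc1*. Levels of *Hpse* and *Gpc6* in the control libraries also overlapped.

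The core proteins carry chains made by other enzymes, and lists of genes around these members were examined with the same fit. Of 32 genes for the synthesis of heparan sulfate chains 24 were found under their symbols and 18 were tested, with a median log2 fold change of 0.21. Of these, 8 were higher and 3 lower at an adjusted p under 0.05, beside 20.2% of all genes tested in each direction. *Ext2*, a subunit of the polymerase that extends the chain, rose from 27.3, 24.7 and 25.0 FPKM to 55.6, 52.3 and 52.3 FPKM, or by 1.06 on the log2 scale (SE 0.0535, adjusted p of 9.75e-06, limma). Its partner *Ext1*, named here after its values were seen, had 16.5 ± 0.386 and 15.6 ± 0.244 FPKM (SD, n = 3), with a log2 fold change of −0.08 (95% interval −0.20 to 0.04, adjusted p of 0.253, limma). *Extl2*, a related glycosyltransferase that acts on the linkage region, rose 3.07-fold, from 13.5 ± 1.72 to 41.5 ± 2.59 FPKM (SD, n = 3, log2 fold change 1.62). *Extl3*, thought to start the chain, had 0.33, and *Extl1* had −0.47. *B4galt7*, a galactosyltransferase of the linkage region, rose from 39.4 ± 0.766 to 66.4 ± 3.20 FPKM (SD, n = 3). The chain-modifying enzymes *Glce*, the epimerase, and *Hs6st3*, a sulfotransferase, fell, with log2 fold changes of −0.70 and −1.06. *Hs6st3* had 422, 377 and 412 reads against 200, 203 and 215, and with a pseudocount of 1 its log2 fold change was −0.88. At both thresholds *Ext2* and *Extl2* were called higher and *Hs6st3* lower, beside 2.69% and 2.50% of all genes tested.

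Among 10 genes for the removal of sulfate and the breakdown of heparan sulfate, 9 were tested, all with a log2 fold change above 0 and a median of 0.26. At an adjusted p under 0.05, 5 were higher and 0 lower, beside 20.2% of all genes tested in each direction. Limma gave the same counts at an unadjusted p under 0.05, where 24.6% of all genes tested were higher and 24.3% lower. *Gusb*, the lysosomal beta-glucuronidase, rose from 59.1 ± 2.11 to 98.7 ± 4.64 FPKM (SD, n = 3, log2 fold change 0.74). *Sulf2*, an extracellular sulfatase that edits chains on the cell surface, had a log2 fold change of 0.41, and the lysosomal *Idua* had one of 0.26. No gene of this list reached the fold threshold.

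Of 12 genes for shedding and cleavage of core proteins 9 were tested, with a median log2 fold change of 0.29. Of these, 5 were higher and 1 lower at an adjusted p under 0.05 (limma), beside 20.2% of all genes tested in each direction. *Notum*, a secreted hydrolase whose action on glypicans was not examined here, was weakly expressed. It had 0.737, 0.792 and 0.804 FPKM in the controls, against 2.91, 2.34 and 2.54 FPKM with *Xbp1* siRNA. The groups were far apart, and the log2 fold change was 1.61 (SE 0.162, adjusted p of 0.000225, limma), or 1.01 with a pseudocount of 1. *Mmp9* rose from 108 ± 5.26 to 176 ± 9.05 FPKM (SD, n = 3). The convertase *Pcsk7* had a log2 fold change of 0.47 and the sheddase *Adam17* one of 0.32. *Mmp14*, a membrane-bound metalloproteinase that can shed *Sdc1*, fell, with −0.36.

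The 12 genes of the route through syntenin and ALIX were all tested. At an adjusted p under 0.05, 1 was higher and 3 were lower, beside 20.2% of all genes tested in each direction. The median log2 fold change was 0.02. Syntenin (*Sdcbp*) had 34.3, 37.6 and 38.0 FPKM in the controls, against 32.8, 34.1 and 30.5 FPKM with *Xbp1* siRNA. Its log2 fold change was −0.18 (adjusted p of 0.0531, limma), and it passed 0.05 under 3 alternatives: 0.0268 and 0.0493 without control replicate 1 and *Xbp1* siRNA replicate 2, and 0.0453 with a filter at 1 FPKM. Under each of these 3, 5 genes of the list were lower, and quantile normalization gave 3 higher. ALIX (*Pdcd6ip*) had 0.05 (95% interval −0.03 to 0.13, adjusted p of 0.267, limma), or 0.11 after quantile normalization (adjusted p of 0.0244). Both were named after their values were seen. *Src*, a kinase that acts on the syndecan tail, fell from 78.2 ± 3.19 to 56.0 ± 1.25 FPKM (SD, n = 3, log2 fold change −0.48). *Cd63*, a tetraspanin of late endosomes, had −0.44, which quantile normalization moved to −0.13, and the small GTPase *Arf6* had −0.19. *Vps4b*, an ATPase of vesicle scission, had 0.30.

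**Figure D4:**
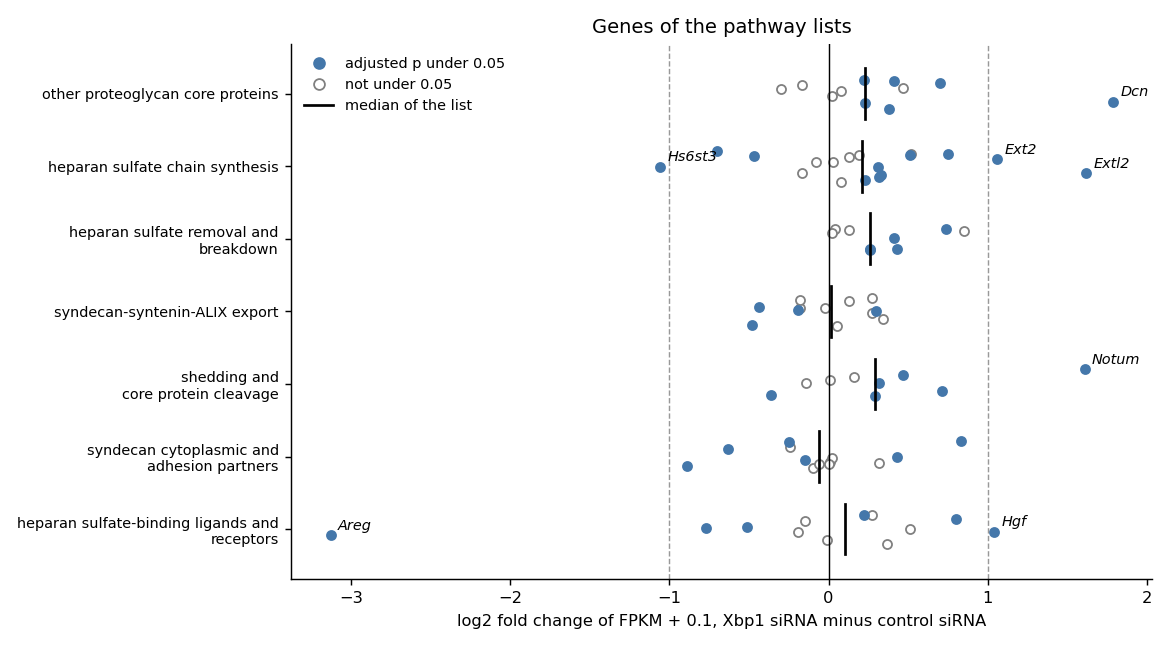
Log2 fold change of FPKM + 0.1 (x axis, *Xbp1* siRNA minus control siRNA) of the genes tested in each of 7 lists (y axis), 1 point per gene. Filled points have an adjusted p under 0.05, vertical bars are list medians from −0.06 to 0.29, dashed lines mark −1 and 1, and the 7 genes past both thresholds are named.

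Of 14 genes for other proteoglycan core proteins and a heparanase relative, 13 were found (*Hpse2* was not found under that symbol) and 11 were tested, with 6 higher and 0 lower at an adjusted p under 0.05 (limma), beside 20.2% of all genes tested in each direction. The counts at an unadjusted p under 0.05 were also 6 and 0, beside 24.6% and 24.3% of all genes tested. *Dcn*, a small matrix proteoglycan with a chondroitin or dermatan sulfate chain, rose from 6.37 ± 0.416 to 22.2 ± 0.504 FPKM (SD, n = 3), or by 1.79 on the log2 scale (adjusted p of 3.78e-06, limma). *Cd44*, a hyaluronan receptor that can carry heparan sulfate, had 0.41, *Nrp1*, a coreceptor for semaphorins and VEGF, 0.70, the basement membrane proteoglycan *Agrn* 0.38 and *Cspg4* 0.23. The median of the list was 0.23.

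Of 15 cytoplasmic and adhesion partners of syndecans 13 were tested, with a median log2 fold change of −0.06. Of these, 2 were higher and 4 lower at an adjusted p under 0.05 (limma), beside 20.2% of all genes tested in each direction. *Itgb1*, the integrin subunit that works beside *Sdc4* in adhesion to fibronectin, fell from 565 ± 3.86 to 365 ± 6.53 FPKM (SD, n = 3, log2 fold change −0.63, or −0.41 after quantile normalization), and *Ezr*, which links membrane proteins to actin, had −0.89. *Fn1*, fibronectin itself, rose with 0.83, and *Tln1*, an activator of integrins, had −0.25. Among 17 ligands and receptors that bind heparan sulfate 12 were tested, with a median of 0.10. By the same rule 3 were higher and 3 lower, beside the same 20.2% in each direction. *Areg*, an EGF receptor ligand that binds heparan sulfate, had a log2 fold change of −3.13. *Hgf* had 1.04 and its receptor *Met* 0.80, and *Hgf* fell short of the fold threshold with 0.56 at a pseudocount of 1, 0.93 after quantile normalization, and 0.97 and 0.96 without *Xbp1* siRNA replicate 1 and 3. The FGF receptor *Fgfr1* had 0.22 (adjusted p of 0.0423, limma) and did not pass under 7 of 14 alternatives, 5 of them left-out libraries, with an adjusted p of up to 0.119, and under 6 of these 7 the list had 2 genes higher. *Vegfa* had −0.51 and *Igf1r* −0.77. *Fgf2* was listed at 0 in every library.

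Over the 7 lists together, 103 of 112 genes were found under their symbols and 84 were tested, and 30 were higher and 14 lower at an adjusted p under 0.05, a share of 52.4% beside 40.4% of all genes tested. Of the 84 genes, 56 had a log2 fold change above 0 and 28 below 0. The lists were not tested as sets, and a share read beside that of all genes is a description.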

How the data were processed

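RNA was extracted with a miRNeasy kit, and stranded mRNA libraries (TruSeq) were sequenced. The authors deposited FPKM, 1 library per file; the submitters' processing notes list HISAT2 2.1.0 and Cuffdiff 2.2.1, and the genome build and annotation are not given in the sources used here. FPKM are not counts, so the DESeq2 test of the study's methods does not apply. The fit was made here on log2(FPKM + 0.1), using limma 3.58.1 (lmFit, eBayes with trend; R 4.3.3) over the 14361 genes with a mean of at least 0.1 FPKM, with Benjamini-Hochberg adjustment. The procedure was tested on simulated data. Where the values of a gene, multiplied by the relative depth of each library, were whole multiples of 1 step within 0.002 to 0.03 reads, the smallest whole numbers are given as reads, which cover counting error only. This was so for *Sdc1*, *Sdc2*, *Sdc3* and *Hpse* among the members, and for *Cdh13* and *Hs6st3* among the other genes tried. All 9 member symbols were matched in RefSeq's list of hamster genes (assembly CriGri-PICRH-1.0), used for names only. The symbol *Gpc5*, which is no member, was not found in that list. Steps in Python 3.11.15 used numpy 2.4.6 and pandas 2.3.3.

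The members and lists were chosen with earlier results of these data known. From each list the text names called genes (adjusted p under 0.05 and a log2 fold change of at least 1 in size) and up to 4 more by smallest adjusted p, of which 1 is not reported here. Genes most like a called member in profile were to be named, but no member was called. Alternatives were other pseudocounts, filters, scalings, thresholds and fits, and leaving out each library. The replicate numbers were not taken as pairs: after subtraction of group means, same-numbered libraries correlated over genes by −0.0289, −0.0265 and −0.0124.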

Additional observations from a re-analysis of the deposited data

How the results depend on the processing

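Of the log2 fold changes of single genes recomputed under the alternatives, 686 stayed on their side of an adjusted p of 0.05, 22 no longer passed it (7 of *Sdc2*, 7 of *Fgfr1* and 8 of *Cdh1*) and 4 newly passed it. Of those that passed in either fit, 0 changed sign; *Gpc5*, which did not pass, lay between −0.01 and 0.06. Under every alternative run, *Sdc1*, *Sdc4*, *Gpc1* and *Gpc6* had an adjusted p under 0.05 (limma) and *Hpse* did not, with log2 fold changes of 0.26 to 0.39, −0.75 to −0.61, −0.27 to −0.15, 0.40 to 0.48 and 0.15 to 0.31, respectively. *Sdc2* passed under 6 alternatives and not under 7, and it could not be tested with a filter at a mean of 1 FPKM. With both thresholds, 0 members were called higher, or 1 (*Sdc2*) with a pseudocount of 0.01 or without *Xbp1* siRNA replicate 2, so the range over left-out libraries was 0 to 1. A fold threshold of 0.58 called 1 member higher and 1 lower, 11 list genes higher and 6 lower, and 1014 genes higher and 972 lower over all. A pseudocount of 1 called 114 genes higher and 205 lower against 386 and 359, and 1 list gene lower; it shrinks fold changes of weakly expressed genes. A filter at 1 FPKM called 242 higher, with fewer genes tested. With the replicate block, 363 genes were called higher and 353 lower, and *Sdc2* had an adjusted p of 0.0725 (limma); the block changed no other member's side of 0.05. For *Sdc2* and *Sdc3*, the few reads limit what can be seen.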
